A study of Homo sapiens with 12 samples.

Results

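The interaction of oxygen and macrophage co-culture in PANC-1 cells, an established human pancreatic cancer line, is described here across the transcriptome. It is a difference of 2 differences on the log2 scale: the change in a transcript when PANC-1 cells were grown with tumor-associated macrophages (TAMs) under hypoxia, minus the same change under normoxia. Its members are all 12 of the 12 arrays of the series and all 34487 of the 34487 features with deposited values. The paper reports more targets for its array than this, and the sources used here do not explain the difference. Of the deposited values, no array or feature was left out for its value, and shares of all features refer to these 34487. PANC-1 cells were kept for 4 days in 4 groups of 3 arrays each: alone in normoxia (NPC), with TAMs in normoxia (NPM), alone in hypoxia (HPC) and with TAMs in hypoxia (HPM). The 2 cell types were separated by a porous transwell membrane, and the mRNA level of the PANC-1 compartment was read on one-colour expression arrays, with triplicates described as independent experiments. The study's methods describe the macrophages as differentiated from the THP-1 monocyte line and polarized, so all are cell line models. Later assays of the study used M2-polarized macrophages, but the state used for the arrays is not named for them, and the sources used here do not give the oxygen level of the hypoxic culture.

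Cells sense low oxygen through the hypoxia-inducible factors (HIFs), whose alpha subunits are hydroxylated and destroyed when oxygen is plentiful, and which otherwise bind a short CGTG core near genes of glycolysis, lipid storage, angiogenesis and growth restraint. TAMs act on neighbouring carcinoma cells through secreted factors, among them interferon-inducing and NF-kB-activating cytokines, growth factors and proteases. Pancreatic carcinoma is known for poor perfusion and a dense, macrophage-rich stroma, so that its cells commonly meet both conditions together. A positive interaction means that co-culture raised a transcript more, or lowered it less, in hypoxia than in normoxia. The same number is also the amount by which the effect of hypoxia was larger with TAMs than without them.

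The arrays were alike in their distributions, with lower quartiles of 7.65 to 7.74 and upper quartiles of 10.78 to 10.91 log2 intensity. The authors' quantile normalization largely sets this likeness, so it does not speak to array quality. Array weights, an alternative setting that gives noisier arrays less weight, ran from 0.550 (NPC array 3) to 2.93 (NPC array 1). Arrays of a group correlated across features at 0.942 to 0.973, and arrays of different groups at 0.909 to 0.972. Of 24 epithelial and keratin genes listed as markers of the PANC-1 compartment, the summed level was 16.76 to 17.20 log2 intensity over the 12 arrays. The deposited values carry no detection flag, so a low intensity is described by its place on the array. In bulk RNA, fewer cells of a type and less RNA per cell cannot be told apart.

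Co-culture acted differently on PANC-1 cells in the 2 oxygen conditions for a small group of transcripts, and for some of these its direction turned. The interaction passed an adjusted p of 0.05 (limma, Benjamini-Hochberg over all features) for 156 of 34487 features, or 0.452%. It was positive for 60 of them (0.174% of features) and negative for 96 (0.278%), and 155 of the 156 exceeded 2-fold. For 133 of the 156, the co-culture effects in normoxia and hypoxia had opposite signs, as they had for 13405 of all 34487 features. The 156 were chosen by a wide difference of these same 2 effects, which by itself favours opposite signs. The higher share among them is therefore not a separate result. For 77 of the 133 both effects also had an unadjusted p under 0.05, and for 15 both passed. The co-culture effect passed in hypoxia alone for 98 of the 156 and in normoxia alone for 39. The effect was larger in hypoxia for 105 and larger in normoxia for 51. Among the 60 positive features this split was nearly even, with 28 larger in hypoxia and 32 in normoxia. Among the 96 negative features, 77 had the larger effect in hypoxia. At an unadjusted p under 0.05, 3944 features passed (11.4%), of which 1755 were higher (5.09%) and 2189 lower (6.35%). The shares of this paragraph are the background against which the counts of every gene list below are to be read.

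The co-culture effect itself passed for 872 features in normoxia (2.53%) and for 1885 in hypoxia (5.47%). In normoxia 353 rose (1.02%) and 519 fell (1.5%), and in hypoxia 632 rose (1.83%) and 1253 fell (3.63%). At an unadjusted p under 0.05, 2251 features were higher (6.53%) and 3230 lower (9.37%) in normoxia, and 2638 higher (7.65%) and 4416 lower (12.8%) in hypoxia. The normoxic and hypoxic comparisons share no arrays. They had 299 features in common, which is 34.3% of the normoxia calls and 15.9% of the hypoxia calls. Of these, 284 moved in the same direction and 15 in opposite directions, and all 15 were among the 156. Across all features the 2 co-culture effects correlated with r = 0.299, given as a description over features that are measured on the same arrays and are not independent.

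**Figure D1:**
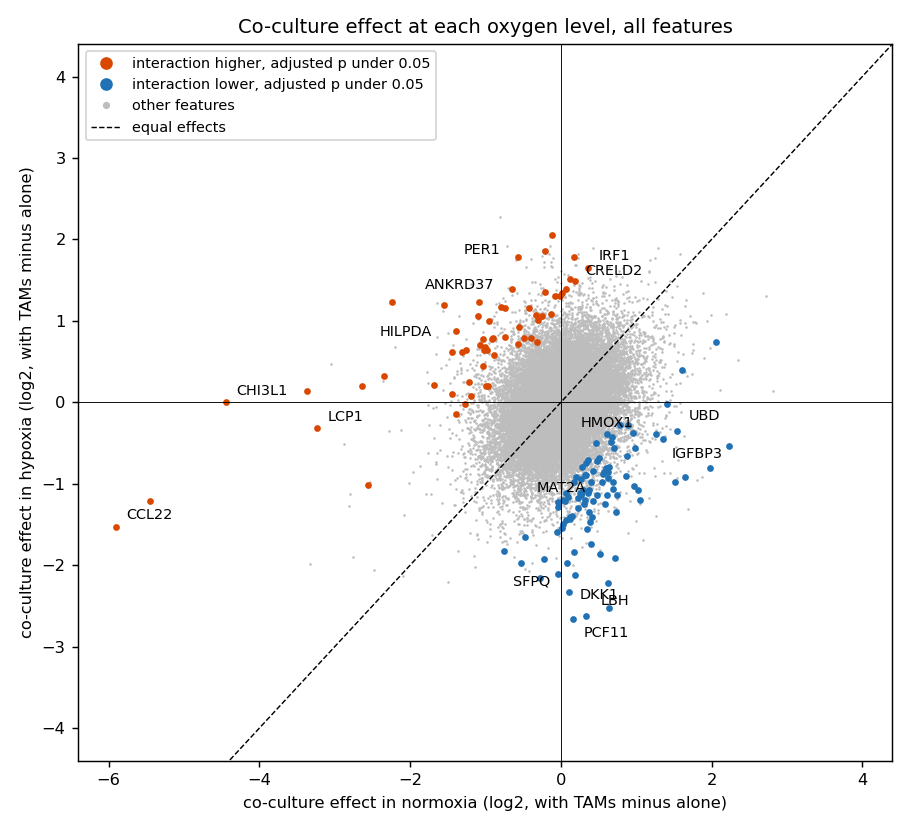
Co-culture effect in normoxia (NPM minus NPC, x axis) against that in hypoxia (HPM minus HPC, y axis), both in log2, for all 34487 features, with the 156 features whose interaction passed drawn in colour. Features on the diagonal responded equally, and 133 of the 156 coloured points lie in the quadrants where the 2 effects have opposite signs. Choosing features by a wide difference of the 2 effects favours these quadrants.

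The count rests on every array. Without a single array, the number of features that passed was 31, 73 and 57 (NPC), 23, 38 and 54 (NPM), 29, 23 and 24 (HPC) or 36, 26 and 58 (HPM), leaving out arrays 1, 2 and 3 of each group in turn. All 156 estimates kept their sign in all 12 of these fits, 19 features passed in all 12 and 48 in none. The 19 included the named genes CHI3L1, CCL22, ANKRD37, HILPDA, MAT2A, RCAN1, SFPQ, DKK1 and PCF11. The other named genes that passed were each lost in at least 1 of these fits. Same-numbered arrays departed from their group means together at each oxygen level. With the number as a fixed block within each oxygen level, 31 features passed, 27 of them among the 156, and with the number as a random block 1138 passed, all 156 included.

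HILPDA, a HIF-1 target that coats lipid droplets and slows lipolysis, turned in this way with the smallest adjusted p among the hypoxia-induced genes. Its log2 intensity was 12.57, 12.51 and 12.55 on the NPC arrays and 11.05, 11.15 and 11.26 on the NPM arrays. It was 13.30, 13.41 and 13.04 on the HPC arrays and 14.04, 14.33 and 14.03 on the HPM arrays. The groups overlapped at neither oxygen level: co-culture lowered HILPDA in normoxia by a log2 difference of -1.39 ± 0.14 (SE; adjusted p = 0.00257) and raised it in hypoxia by 0.88 ± 0.14 (adjusted p = 0.00894). The interaction was 2.28 ± 0.20 (adjusted p = 0.00266, 0.00668 to 0.0188 without single arrays), and hypoxia thus changed HILPDA by 0.71 in PANC-1 cells alone and by 2.98 beside TAMs.

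ANKRD37, an ankyrin repeat protein whose gene is a HIF-1 target, followed the same course. Its values were 8.94, 9.08 and 8.47 (NPC), 8.01, 7.38 and 7.86 (NPM), 9.50, 9.76 and 9.63 (HPC) and 10.82, 10.91 and 10.86 (HPM). All NPM arrays lay under all NPC arrays and all HPM arrays above all HPC arrays. The interaction was 2.32 ± 0.28 (adjusted p = 0.0116, 0.0129 to 0.0456 without single arrays and 0.0552 with the fixed block), with co-culture effects of -1.08 ± 0.20 in normoxia (adjusted p = 0.0202) and 1.23 ± 0.20 in hypoxia (adjusted p = 0.00843). DDIT4, an inhibitor of mTORC1 signalling chosen here after its values were seen, had an interaction of 1.47 ± 0.22 (adjusted p = 0.029, 0.0451 to 0.0894 without single arrays and 0.0552 with the fixed block). Its values of 11.53, 11.82 and 11.41 (NPC) and 10.43, 10.87 and 10.78 (NPM) did not overlap. The same held for 13.12, 13.15 and 13.05 (HPC) and 13.67, 13.79 and 13.61 (HPM), where the co-culture effect of 0.58 ± 0.16 had an adjusted p of 0.06.

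EFNA3, which encodes ephrin-A3, a membrane-bound ligand of Eph receptors, was positive among the angiogenic and vasoactive factors. It read 9.87, 10.15 and 9.83 (NPC), 8.61, 9.35 and 8.81 (NPM), 10.53, 10.18 and 10.26 (HPC) and 11.22, 10.94 and 11.16 (HPM), again with no overlap at either oxygen level. Its interaction was 1.81 ± 0.28 (adjusted p = 0.0318, 0.0293 to 0.0955 without single arrays). Of the 17 factors of this list that were measured, EFNA3 alone passed (0.452% of all features did), and 5 were higher and 1 lower at an unadjusted p under 0.05 (5.09% and 6.35% of all features). Angiogenin (ANG) had an interaction of 0.91 ± 0.20 (adjusted p = 0.0905) and EFNA1 of 0.81 ± 0.21 (adjusted p = 0.153), neither of which passed.

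STC2 and IGFBP3 went the other way: co-culture accompanied higher values in normoxia and lower values in hypoxia. The rise of STC2 in normoxia and the fall of IGFBP3 in hypoxia did not themselves pass. STC2 encodes stanniocalcin 2, a secreted glycoprotein, and read 12.89, 13.05 and 12.85 (NPC), 13.39, 13.70 and 13.34 (NPM), 13.61, 13.80 and 13.40 (HPC) and 12.84, 12.53 and 12.50 (HPM). The groups did not overlap at either oxygen level, and the interaction was -1.53 ± 0.23 (adjusted p = 0.029, 0.0457 to 0.0887 without single arrays and 0.0552 with the fixed block). IGFBP3, the main circulating binding protein of insulin-like growth factors, read 9.21, 9.36 and 8.57 (NPC), 10.39, 10.40 and 10.42 (NPM), 10.37, 10.23 and 10.42 (HPC) and 9.99, 9.99 and 9.71 (HPM). Its interaction was -1.80 ± 0.28 (adjusted p = 0.029, 0.0236 to 0.0839 without single arrays and 0.065 with the fixed block). Its rise with TAMs in normoxia was 1.36 ± 0.19 (adjusted p = 0.0071). Hypoxia changed IGFBP3 by 1.29 ± 0.19 without TAMs and by -0.51 ± 0.19 with them, and STC2 by 0.68 ± 0.16 and -0.85 ± 0.16.

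The hypoxia-induced genes did not move together in the interaction. Of 38 genes listed as hypoxia-induced, 35 were measured, and the interaction was positive and passed for 3 (HILPDA, ANKRD37 and DDIT4) and negative and passed for 2 (STC2 and IGFBP3), beside 0.174% and 0.278% of all features. At an unadjusted p under 0.05, 6 were higher and 3 lower (5.09% and 6.35% of all features). The list's median interaction was -0.01, beside -0.02 over all features. VEGFA, the main angiogenic growth factor, and CA9, a carbonic anhydrase of the cell surface, are given as textbook HIF targets outside the naming rule. VEGFA had an interaction of -0.14 ± 0.43 (adjusted p = 0.959) and CA9 of -0.59 ± 0.56 (adjusted p = 0.783). The list's median hypoxia effect was 1.01 in PANC-1 cells alone and 1.12 with TAMs. Among 28 measured glycolysis genes none passed, and the median was -0.08. Of the 28, 3 were higher and 4 lower at an unadjusted p under 0.05 (5.09% and 6.35% of all features). The enolase ENO2 had an interaction of 1.12 ± 0.22 (adjusted p = 0.0611) and PFKFB4, which sets fructose 2,6-bisphosphate, of 1.53 ± 0.31 (adjusted p = 0.0739). HIF1A, the alpha subunit itself, had an interaction of 1.02 ± 0.26 (adjusted p = 0.137), and another HIF1A feature 0.58 ± 0.24 (adjusted p = 0.393). None of the 12 measured genes of the HIF and oxygen sensing list passed.

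**Figure D2:**
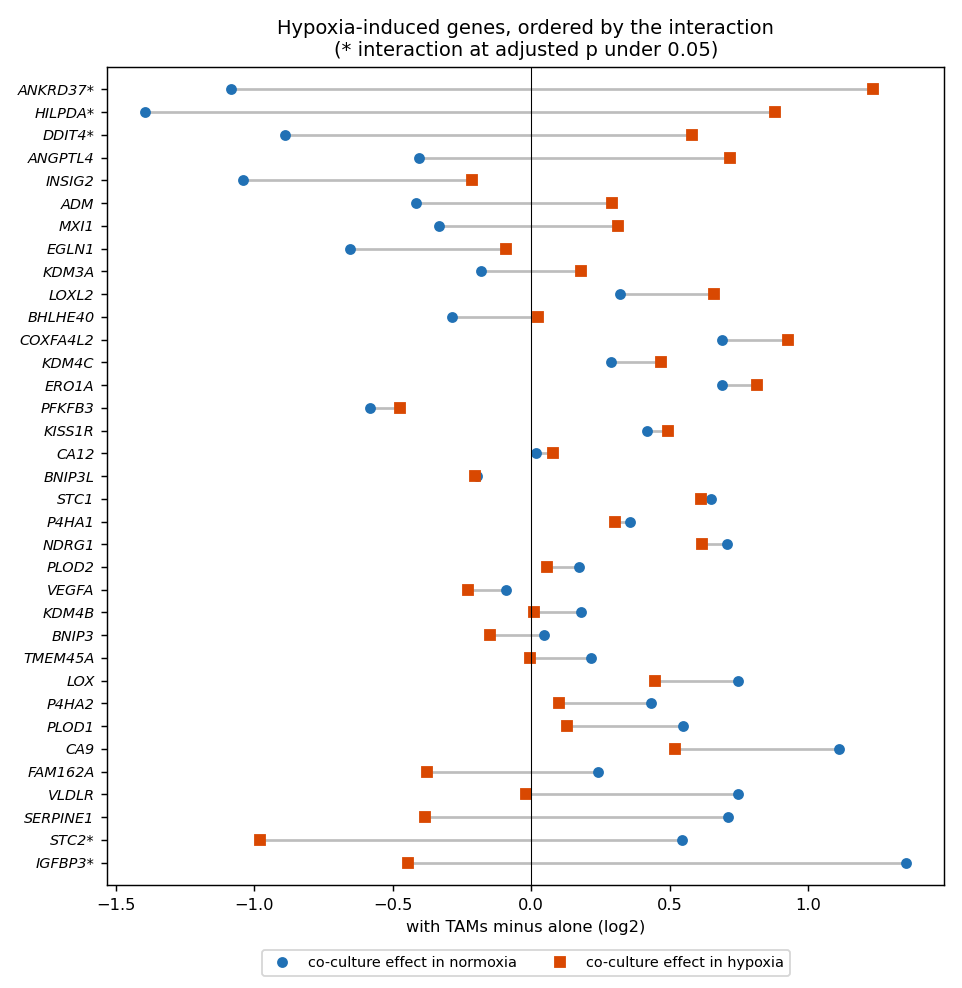
Co-culture effect (with TAMs minus alone, log2, x axis) of each of the 35 measured hypoxia-induced genes (y axis) in normoxia (circles) and hypoxia (squares), joined by a line whose length is the size of the interaction. An asterisk marks the 5 genes whose interaction passed: for ANKRD37, HILPDA and DDIT4 the square lies right of 0 and the circle left of it, and for STC2 and IGFBP3 the reverse.

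The sequences before the start sites of EFNA3 and of 4 hypoxia-induced genes are shown because HIFs bind the CGTG core and these genes differ in the sign of the interaction. They are the 250 bases upstream of each RefSeq start (GRCh38.p14), and capitals mark ACGTG or GCGTG on either strand. The first 3 belong to genes with a positive interaction and the last 2 to genes with a negative one. ANKRD37 lies at chr4:185396591-185396840 (plus strand), DDIT4 at chr10:72273674-72273923 (plus), EFNA3 at chr1:155078587-155078836 (plus), STC2 at chr5:173328415-173328664 (minus) and IGFBP3 at chr7:45921273-45921522 (minus).
ANKRD37: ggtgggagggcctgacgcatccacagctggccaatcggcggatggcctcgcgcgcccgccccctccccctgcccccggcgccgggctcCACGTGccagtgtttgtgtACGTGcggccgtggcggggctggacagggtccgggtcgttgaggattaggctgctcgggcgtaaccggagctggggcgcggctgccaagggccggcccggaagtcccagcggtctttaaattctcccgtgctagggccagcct
DDIT4: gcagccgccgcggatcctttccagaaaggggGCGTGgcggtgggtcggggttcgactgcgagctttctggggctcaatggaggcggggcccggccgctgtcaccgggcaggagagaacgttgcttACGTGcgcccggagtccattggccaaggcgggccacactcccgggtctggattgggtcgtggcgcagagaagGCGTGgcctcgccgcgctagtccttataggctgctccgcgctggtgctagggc
EFNA3: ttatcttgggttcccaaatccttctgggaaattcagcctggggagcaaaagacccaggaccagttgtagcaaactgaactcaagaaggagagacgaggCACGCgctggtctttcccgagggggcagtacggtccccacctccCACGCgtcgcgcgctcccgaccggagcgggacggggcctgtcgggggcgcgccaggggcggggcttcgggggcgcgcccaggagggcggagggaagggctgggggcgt
STC2: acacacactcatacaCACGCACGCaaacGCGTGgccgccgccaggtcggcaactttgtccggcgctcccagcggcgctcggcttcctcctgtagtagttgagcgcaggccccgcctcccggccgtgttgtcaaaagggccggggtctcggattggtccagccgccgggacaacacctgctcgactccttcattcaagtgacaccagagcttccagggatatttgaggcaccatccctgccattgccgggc
IGFBP3: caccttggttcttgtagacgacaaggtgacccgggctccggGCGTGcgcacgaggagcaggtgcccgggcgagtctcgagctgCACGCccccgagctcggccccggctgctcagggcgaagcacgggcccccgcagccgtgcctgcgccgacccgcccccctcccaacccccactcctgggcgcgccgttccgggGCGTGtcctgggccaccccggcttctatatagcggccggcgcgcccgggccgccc
The motif had 3 matches in the windows of ANKRD37, DDIT4, STC2 and IGFBP3, and 2 in that of EFNA3. Overlapping matches run together in capitals, as in ANKRD37 and STC2. At least 1 match was held by 43.1% of 27305 promoters of this length and by 54.7% of the 10840 whose gene was measured here by name. Among genes with a promoter in the table, it was held by 18 of 25 with a positive interaction that passed (72.0%), by 27 of 43 with a negative one (62.8%) and by 26 of 30 hypoxia-induced genes (86.7%). Of other genes described here, NR1D1 had 3 matches, PER1 had 2, IRF1 had 1, and DKK1, CCL22, CHI3L1 and RCAN1 had 0. A match describes these letters only.

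The widest positive interactions belonged to CHI3L1 and CCL22, which fell with TAMs in normoxia and fell less or not detectably in hypoxia. CHI3L1 encodes a secreted chitinase-like glycoprotein of inflamed tissue and of macrophages. It read 9.06, 9.62 and 9.18 (NPC), 4.67, 5.10 and 4.77 (NPM), 8.13, 7.74 and 8.46 (HPC) and 7.89, 8.10 and 8.35 (HPM), so that the normoxic groups stood wide apart and the hypoxic groups overlapped. The interaction was 4.45 ± 0.32 (adjusted p = 0.000587, 0.00191 to 0.00467 without single arrays). CCL22, a chemokine that attracts regulatory and Th2 T cells through CCR4, read 11.69, 11.39 and 11.38 (NPC), 6.07, 5.96 and 4.71 (NPM), 10.98, 10.83 and 10.84 (HPC) and 9.55, 9.26 and 9.26 (HPM). Here the groups were apart in both conditions, and the fall of -5.90 ± 0.30 in normoxia exceeded that of -1.53 ± 0.30 in hypoxia by an interaction of 4.38 ± 0.42 (adjusted p = 0.00451, 0.000297 to 0.0252 without single arrays). The NPM values lay at the 0.125 to 0.354 percentile of their arrays for CHI3L1 and at the 0.139 to 4.17 percentile for CCL22, so these falls end near the lower limit of the signal and the size and rank of both interactions are uncertain. Of the 15 measured CC chemokines CCL22 alone passed (0.452% of all features did), and CCL4, chosen after its values were seen, had an interaction of 1.54 ± 0.33 (adjusted p = 0.0775).

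Genes that macrophages express are given beside them. Of 26 macrophage markers, 18 were measured and 1 passed (0.452% of all features did), the actin-bundling protein LCP1, chosen after its values were seen. At an unadjusted p under 0.05, 3 of the 18 were higher and 1 lower (5.09% and 6.35% of all features). LCP1 read 7.16, 7.49 and 7.22 (NPC), 3.98, 4.18 and 3.99 (NPM), 5.37, 5.22 and 5.05 (HPC) and 5.54, 4.28 and 4.87 (HPM), with an interaction of 2.92 ± 0.37 (adjusted p = 0.0146), which was lost (0.00681 to 0.0611 over the 12 fits) without HPC array 2, HPC array 3 or NPM array 1. It was dim, with all 12 values below 7.67, the 25th percentile of all group means. The summed level of the 18 markers was 12.52 to 12.63 log2 intensity in NPC, 12.73 to 12.86 in NPM, 12.32 to 12.44 in HPC and 12.86 to 12.89 in HPM. Most of that sum was CD68, a lysosomal protein, whose interaction was 0.49 ± 0.17 (adjusted p = 0.289). The defining markers CD14 and CD163 had group means of 7.07, 7.26, 7.01 and 6.33, and of 7.46, 7.76, 7.52 and 8.03 (NPC, NPM, HPC and HPM), and neither passed. Of 14 class II antigen presentation genes, 8 were measured and none passed, with a median interaction of 1.09, positive for 6 and negative for 2. At an unadjusted p under 0.05, 4 of the 8 were higher and 1 lower (5.09% and 6.35% of all features). The summed level of the 8 genes did not follow the median. It was 10.89 to 10.95 log2 intensity in NPC and 11.95 to 12.05 in NPM, and 10.95 to 11.32 in HPC and 11.38 to 11.84 in HPM. The sum thus rose with TAMs at both oxygen levels, and more in normoxia. Of several CD74 features, 1 had an interaction of -1.82 ± 0.44 (adjusted p = 0.119) and another 0.41 ± 0.37 (adjusted p = 0.769). HLA-DRA read 7.35, 8.34 and 7.71 (NPC), 4.35, 4.11 and 5.79 (NPM), 7.65, 7.81 and 6.43 (HPC) and 7.67, 8.34 and 7.30 (HPM), with an interaction of 3.52 ± 0.71 (adjusted p = 0.0694). The part of macrophage RNA in the values of CHI3L1 and CCL22 was not tested.

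PER1 and NR1D1, core repressors of the circadian clock, also had positive interactions, larger on the hypoxic side. PER1 read 7.80, 7.81 and 7.71 (NPC), 7.26, 7.06 and 7.28 (NPM), 7.61, 8.23 and 8.88 (HPC) and 9.82, 10.02 and 10.22 (HPM). The HPC arrays were spread more widely than the others, yet all lay under the HPM arrays, and the interaction was 2.35 ± 0.37 (adjusted p = 0.0319, 0.0147 to 0.0929 without single arrays). NR1D1, a nuclear receptor that represses transcription, read 9.14, 9.16 and 9.33 (NPC), 8.74, 9.04 and 8.61 (NPM), 9.77, 9.88 and 9.98 (HPC) and 10.85, 11.13 and 11.14 (HPM). Its interaction was 1.58 ± 0.22 (adjusted p = 0.0197, 0.0301 to 0.0666 without single arrays and 0.0567 with the fixed block). Co-culture raised NR1D1 in hypoxia by 1.16 ± 0.15 (adjusted p = 0.0035), and its effect in normoxia was -0.42 ± 0.15 (adjusted p = 0.202).

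The remaining positive genes of the 12 widest were TGFBR3, CEBPD, RAB3A, KIF3C and CCNG2. TGFBR3 encodes betaglycan, the co-receptor that presents TGF-beta, and CEBPD a transcription factor of the acute phase. TGFBR3 fell with TAMs in normoxia by -1.69 ± 0.23 (adjusted p = 0.00588), with a hypoxic effect of 0.21 ± 0.23 (adjusted p = 0.677). CEBPD read 7.20, 7.44 and 6.89 (NPC), 6.45, 6.33 and 6.01 (NPM), 6.75, 6.96 and 7.07 (HPC) and 7.52, 7.59 and 7.99 (HPM), with no overlap at either oxygen level. Interactions were 1.90 ± 0.32 for TGFBR3 (adjusted p = 0.0344) and 1.69 ± 0.28 for CEBPD (adjusted p = 0.0331). RAB3A, a GTPase of vesicle exocytosis, had an interaction of 1.66 ± 0.29 (adjusted p = 0.0435), the kinesin KIF3C of 1.62 ± 0.26 (adjusted p = 0.0328), and the atypical cyclin CCNG2 of 1.55 ± 0.28 (adjusted p = 0.0435). Without single arrays the adjusted p was 0.0504 to 0.11 for TGFBR3, 0.0451 to 0.0995 for CEBPD, 0.0412 to 0.124 for RAB3A, 0.0412 to 0.0918 for KIF3C and 0.0599 to 0.111 for CCNG2. With the fixed block it was 0.0828 for TGFBR3, 0.0567 for RAB3A, 0.0508 for KIF3C and 0.0974 for CCNG2.

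**Figure D3:**
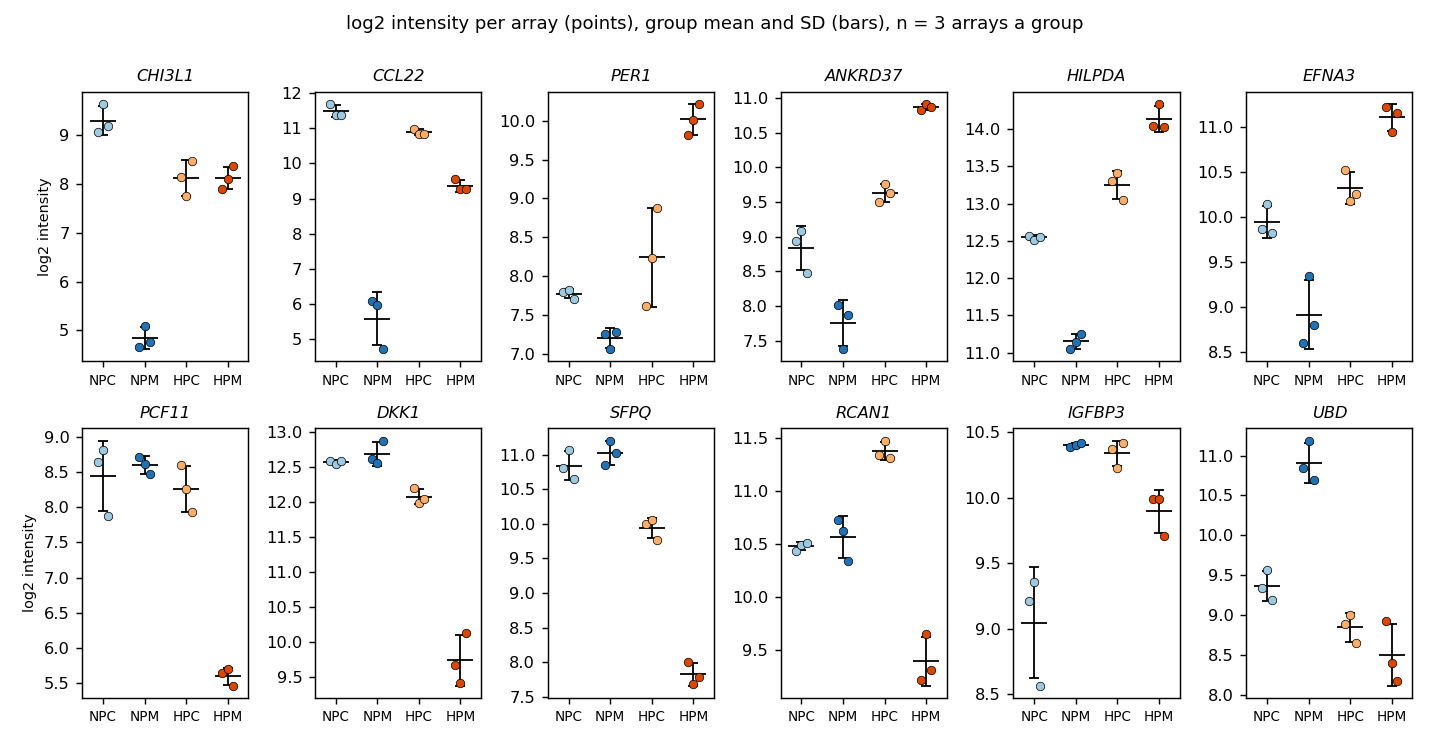
Log2 intensity (y axis) of 12 genes on each of the 12 arrays, by group (NPC, NPM, HPC and HPM, x axis), with points for arrays and bars for the mean ± SD of 3 arrays. CHI3L1 and CCL22 drop in NPM, while PCF11, DKK1, SFPQ and RCAN1 in HPM lie below every array of the other 3 groups.

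On the negative side, PCF11, SFPQ, DKK1 and RCAN1 fell with TAMs in hypoxia, while their co-culture effects in normoxia, between 0.09 and 0.18, did not pass. PCF11, a subunit of the complex that cleaves pre-mRNA and ends transcription, read 8.65, 8.81 and 7.87 (NPC), 8.72, 8.61 and 8.47 (NPM), 8.59, 8.26 and 7.94 (HPC) and 5.64, 5.70 and 5.47 (HPM). SFPQ, a splicing factor of nuclear paraspeckles, read 10.81, 11.06 and 10.64 (NPC), 10.85, 11.20 and 11.02 (NPM), 9.99, 10.05 and 9.77 (HPC) and 8.0, 7.68 and 7.80 (HPM). In both the HPM arrays stood below all others and the normoxic groups overlapped. The interaction was -2.81 ± 0.35 for PCF11 (adjusted p = 0.0116, 0.0129 to 0.048 without single arrays). The HPM values of PCF11 lay at the 1.15 to 2.08 percentile of their arrays, near the lower limit of the signal, so its size is uncertain. The interaction was -2.29 ± 0.23 for SFPQ (adjusted p = 0.00511, 0.00911 to 0.028 without single arrays), whose hypoxic fall was -2.11 ± 0.16 (adjusted p = 0.000451).

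DKK1, a secreted inhibitor of Wnt signalling and itself a Wnt target, was bright in 3 of the 4 groups. It read 12.58, 12.54 and 12.58 (NPC), 12.61, 12.56 and 12.87 (NPM), 12.19, 11.99 and 12.04 (HPC) and 9.68, 9.42 and 10.13 (HPM). The interaction was -2.44 ± 0.26 (adjusted p = 0.00547, 0.00353 to 0.028 without single arrays), a ratio of ratios of 5.42, and DKK1 was the only one of 10 measured Wnt feedback genes that passed (0.452% of all features did). RCAN1, an inhibitor of the phosphatase calcineurin, read 10.44, 10.49 and 10.51 (NPC), 10.73, 10.63 and 10.34 (NPM), 11.34, 11.47 and 11.31 (HPC) and 9.22, 9.65 and 9.32 (HPM). Hypoxia thus changed it by 0.90 ± 0.15 in PANC-1 cells alone and by -1.17 ± 0.15 with TAMs. The interaction was -2.06 ± 0.22 (adjusted p = 0.00547, 0.00681 to 0.0299 without single arrays).

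MAT2A changed in opposite directions at the 2 oxygen levels, and so did the MAX feature NM_145114. MAT2A, which makes the methyl donor S-adenosylmethionine, read 13.25, 13.33 and 13.34 (NPC), 13.87, 13.94 and 14.01 (NPM), 13.10, 13.19 and 13.13 (HPC) and 12.41, 12.41 and 12.21 (HPM). No groups overlapped, and its arrays were among the most even of the named genes. Co-culture raised MAT2A in normoxia by 0.64 ± 0.12 (adjusted p = 0.0211) and lowered it in hypoxia by -0.79 ± 0.12 (adjusted p = 0.0063), with an interaction of -1.43 ± 0.17 (adjusted p = 0.0101, 0.0233 to 0.047 without single arrays and 0.0502 with the fixed block). MAX, the dimerization partner of MYC, was measured by 3 features that disagreed. NM_145114 gave -1.48 (adjusted p = 0.0146, 0.0211 to 0.0611 over the 12 fits, lost without HPC array 2 or NPM array 1, and 0.0539 with the fixed block). NM_197957 gave -1.41 and passed as well (adjusted p = 0.0328, 0.042 to 0.0905 over the 12 fits and 0.0554 with the fixed block), and NM_002382 gave -0.17. For NM_002382 the co-culture effects of 0.24 in normoxia and 0.07 in hypoxia had the same sign.

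PPP1R10, LBH, ENDOV, ARHGAP26, CABP7 and NCOA5 were the other negative genes among the widest. PPP1R10, a nuclear regulator of protein phosphatase 1, read 10.93, 10.85 and 10.94 (NPC), 11.64, 11.18 and 11.48 (NPM), 11.02, 10.99 and 11.02 (HPC) and 9.53, 8.61 and 9.31 (HPM), falling by -1.86 ± 0.22 in hypoxia (adjusted p = 0.00254). Its interaction was -2.38 ± 0.31 (adjusted p = 0.0151, 0.0502 with the fixed block), which was lost (0.0107 to 0.0611 over the 12 fits) without NPM array 1 or any HPC array. LBH, a transcriptional cofactor, had the widest negative estimate of the named genes, -2.95 ± 0.54, but its NPC arrays read 5.66, 6.85 and 7.57 and its adjusted p was 0.04998 (0.0236 to 0.142 without single arrays, 0.0816 with the fixed block). ENDOV, a ribonuclease that cleaves inosine-containing RNA, had -2.56 ± 0.42 (adjusted p = 0.0328) and ARHGAP26 had -2.01 ± 0.33 (adjusted p = 0.0328). CABP7, a calcium-binding protein, had -1.87 ± 0.33 (adjusted p = 0.0376) and NCOA5, a nuclear receptor coactivator, -1.84 ± 0.31 (adjusted p = 0.0344). Without single arrays the adjusted p of these 4 was 0.0135 to 0.0995, 0.0209 to 0.0959, 0.0357 to 0.11 and 0.034 to 0.11 in that order, and with the fixed block it was 0.0472, 0.0502, 0.0697 and 0.0579.

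Genes of the interferon response split at the level of single members. UBD, a ubiquitin-like modifier induced by interferon-gamma and TNF, read 9.34, 9.56 and 9.18 (NPC), 10.84, 11.19 and 10.70 (NPM), 8.89, 9.00 and 8.64 (HPC) and 8.92, 8.40 and 8.17 (HPM). It rose with TAMs in normoxia by 1.55 ± 0.21 (adjusted p = 0.00658), the hypoxic groups overlapped, and the interaction was -1.89 ± 0.30 (adjusted p = 0.0328, 0.024 to 0.0995 without single arrays and 0.0502 with the fixed block). IRF1, a transcription factor of the same response, read 12.16, 12.50 and 12.29 (NPC), 12.83, 12.76 and 12.44 (NPM), 12.12, 11.94 and 11.97 (HPC) and 13.60, 13.83 and 13.58 (HPM). It rose by 1.65 ± 0.15 in hypoxia (adjusted p = 0.000947), the normoxic groups overlapped, and the interaction was 1.30 ± 0.22 (adjusted p = 0.0342, 0.0701 to 0.11 without single arrays and 0.0714 with the fixed block). NLRC5, the activator of class I genes, had an interaction of -1.17 ± 0.26 that did not pass (adjusted p = 0.0886). Of 23 measured interferon-gamma induced genes, 1 was positive and passed and 1 was negative and passed (0.174% and 0.278% of all features). At an unadjusted p under 0.05, 2 of the 23 genes were higher and 6 lower (5.09% and 6.35% of all features). Their median co-culture effect was 0.86 in normoxia and 0.50 in hypoxia, and their median interaction -0.29. None of the 27 type I interferon induced genes passed, with a median of -0.24, nor any of the 20 class I presentation genes, with a median of -0.24. At an unadjusted p under 0.05, 1 of the 27 was higher and 5 lower. Of the 20, 0 were higher and 2 lower.

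CFB and HMOX1 rose with TAMs in normoxia. CFB, complement factor B of the alternative pathway, read 9.70, 9.87 and 9.79 (NPC), 11.94, 12.15 and 11.46 (NPM), 11.02, 11.23 and 11.12 (HPC) and 11.86, 11.90 and 11.83 (HPM). It was higher with TAMs in both conditions without overlap, by 2.06 ± 0.17 in normoxia and 0.74 ± 0.17 in hypoxia, and the interaction of -1.32 ± 0.24 had an adjusted p of 0.0468 (0.0266 to 0.142 without single arrays, 0.0712 with the fixed block). HMOX1, the heme-degrading enzyme heme oxygenase 1, read 9.93, 10.18 and 9.85 (NPC), 11.35, 11.30 and 11.11 (NPM), 10.88, 10.47 and 10.83 (HPC) and 10.34, 10.10 and 10.56 (HPM), with co-culture effects of 1.27 ± 0.17 in normoxia and -0.39 ± 0.17 in hypoxia and an interaction of -1.66 ± 0.24 (adjusted p = 0.0268, 0.038 to 0.0822 without single arrays). It alone of 21 measured NRF2 and antioxidant genes passed (0.452% of all features did). VCAM1, an adhesion molecule for leukocytes, read 5.21, 5.01 and 4.99 (NPC), 8.13, 7.79 and 7.76 (NPM), 5.02, 6.69 and 5.00 (HPC) and 6.16, 5.73 and 5.25 (HPM). It rose with TAMs in normoxia by 2.82 ± 0.40 (adjusted p = 0.00686), with 0.14 ± 0.40 in hypoxia. Its NPC values lay at the 0.299 to 0.626 percentile of their arrays, so the size of the rise is uncertain. In addition, 1 HPC array stood apart from the other 2 and the interaction of -2.68 ± 0.57 did not pass (adjusted p = 0.0775, 0.0696 to 0.179 without single arrays). None of the 24 measured NF-kB targets passed, with a median of 0.02.

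CRELD2, a chaperone of the endoplasmic reticulum induced by unfolded proteins, rose with TAMs in hypoxia by 1.52 ± 0.15 (adjusted p = 0.00122). It read 10.73, 11.15 and 11.01 (NPC), 11.24, 10.94 and 11.09 (NPM), 10.86, 10.88 and 10.96 (HPC) and 12.31, 12.58 and 12.37 (HPM), with the HPM arrays above all others and an interaction of 1.39 ± 0.21 (adjusted p = 0.029, 0.0431 to 0.0901 without single arrays and 0.0714 with the fixed block). Of 21 measured chaperone and unfolded protein genes it alone passed (0.452% of all features did), and the median was 0.30. At an unadjusted p under 0.05, 5 of the 21 were higher and 1 lower (5.09% and 6.35% of all features). HSPA5, the main chaperone of this compartment, had an interaction of 0.67 ± 0.20 (adjusted p = 0.208).

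In the TGF-beta pathway the receptors parted. TGFBR3, given above, was positive, and TGFBR2, the receptor kinase that binds the ligand, was negative at -1.21 ± 0.21 (adjusted p = 0.0372, 0.0478 to 0.11 without single arrays and 0.0725 with the fixed block). TGFBR2 fell with TAMs in hypoxia by -0.89 ± 0.15 (adjusted p = 0.00966) and had an effect of 0.33 ± 0.15 in normoxia (adjusted p = 0.318). Of 23 measured genes these 2 passed (0.452% of all features did), 3 were higher and 8 lower at an unadjusted p under 0.05 (5.09% and 6.35% of all features), and the median was -0.45. PMEPA1, a feedback inhibitor of the pathway, had -1.05 ± 0.27 (adjusted p = 0.147). CLDN1, a claudin of the tight junction and the only one of 24 measured epithelial genes that passed (0.452% of all features did), had -1.16 ± 0.21 (adjusted p = 0.0467, 0.0583 to 0.135 without single arrays and 0.0787 with the fixed block).

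Co-culture came with lower levels of replication genes mainly in normoxia and of mitotic genes in both conditions. Of 35 genes of G1-S entry and DNA replication, 33 were measured, and co-culture lowered 22 in normoxia, where it lowered 1.5% of all features, and 6 in hypoxia, where it lowered 3.63%. The interaction was positive for 29 and negative for 4, but none passed. With the fixed replicate block 0 passed, and with the random replicate block 7 of the 33 passed, all higher, beside 468 of 34487 features. At an unadjusted p under 0.05, 17 of the 33 were higher and none lower, where 5.09% of all features were higher. The median interaction was 0.61 (quartiles 0.34 and 0.82), from median co-culture effects of -0.97 in normoxia and -0.37 in hypoxia. RFC4, a subunit of the clamp loader, had an interaction of 1.14 ± 0.29 (adjusted p = 0.138), and another RFC4 feature 0.63 ± 0.20 (adjusted p = 0.236). E2F1, the transcription factor of S phase entry, had 0.86 ± 0.20 (adjusted p = 0.108) and MCM2, of the replicative helicase, 0.82 ± 0.21 (adjusted p = 0.135). Without all 4 arrays numbered 1, 2 or 3 the median was 0.58, 0.56 and 0.63, and 9, 8 and 14 genes were higher at an unadjusted p under 0.05.

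**Figure D4:**
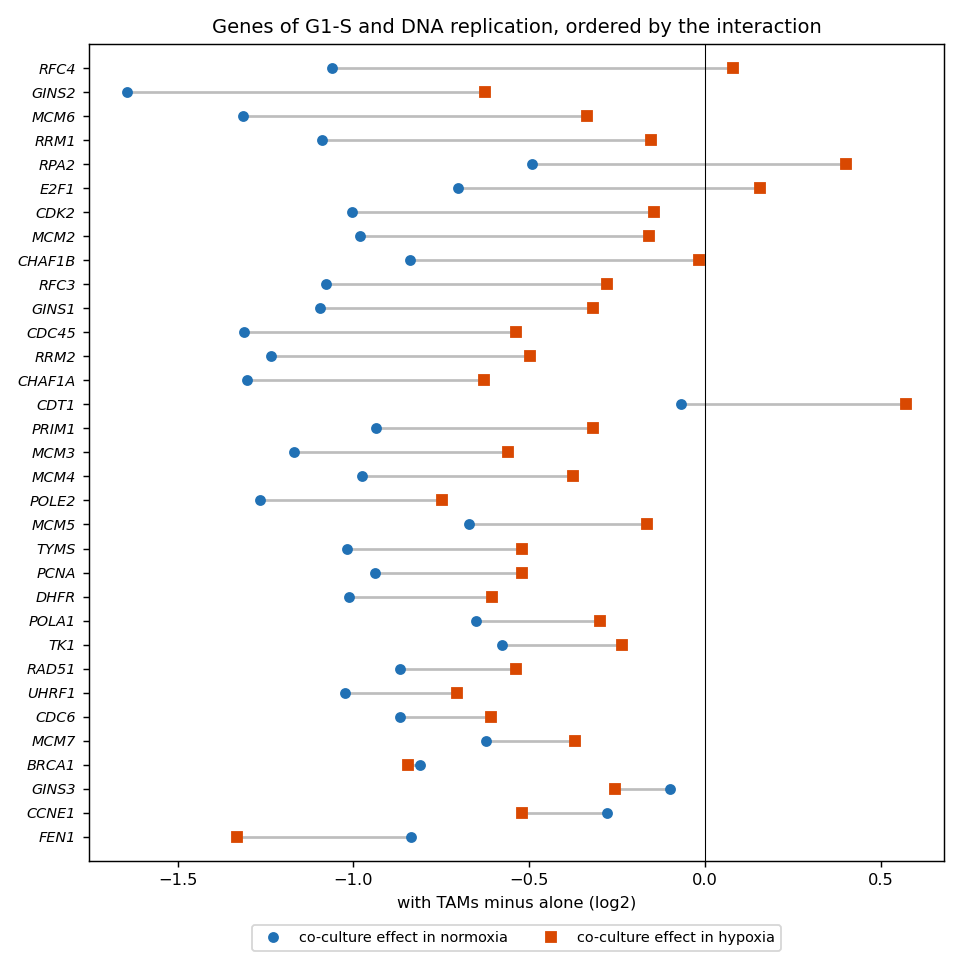
Co-culture effect (with TAMs minus alone, log2, x axis) of each of the 33 measured G1-S and replication genes (y axis) in normoxia (circles) and hypoxia (squares), joined by a line whose length is the size of the interaction. The squares lie to the right of the circles for 29 of the 33 genes, though no single interaction passed.

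The mitotic genes are given beside them. Of 32 measured mitotic genes, co-culture lowered 17 in normoxia and 20 in hypoxia, where it lowered 1.5% and 3.63% of all features. The median effects were -0.82 and -0.90. The median interaction was -0.15. At an unadjusted p under 0.05 the interaction was higher for 1 and lower for 5 of the 32 (5.09% and 6.35% of all features). CCNB1, the cyclin of entry into mitosis, passed with -1.07 ± 0.17 (adjusted p = 0.0318, 0.0542 to 0.0955 without single arrays and 0.0689 with the fixed block). It read 13.29, 13.35 and 13.40 (NPC), 12.64, 12.56 and 12.56 (NPM), 13.21, 13.27 and 13.20 (HPC) and 11.27, 11.46 and 11.48 (HPM), falling in both conditions and further in hypoxia. CENPE, a kinesin of the kinetochore, had -1.02 ± 0.25 (adjusted p = 0.134) and CDC20, an activator of the anaphase-promoting complex, -0.68 ± 0.22 (adjusted p = 0.246).

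In the remaining lists described here no gene passed. The median interaction of 16 housekeeping genes was 0.00, that of 32 cytosolic ribosomal protein genes 0.07, and none of either list passed. The 22 measured ATF4 targets had a median of 0.00, with none passing and 5 lower at an unadjusted p under 0.05 (6.35% of all features). The 36 measured genes for oxidative phosphorylation (electron transport complexes and the ATP synthase) gave a median of 0.08 and the 28 of cholesterol synthesis -0.15, with none passing. The 6 measured CXC and CX3C chemokines had a median of -0.57, with 3 lower at an unadjusted p under 0.05 (6.35% of all features) and none passing.

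**Figure D5:**
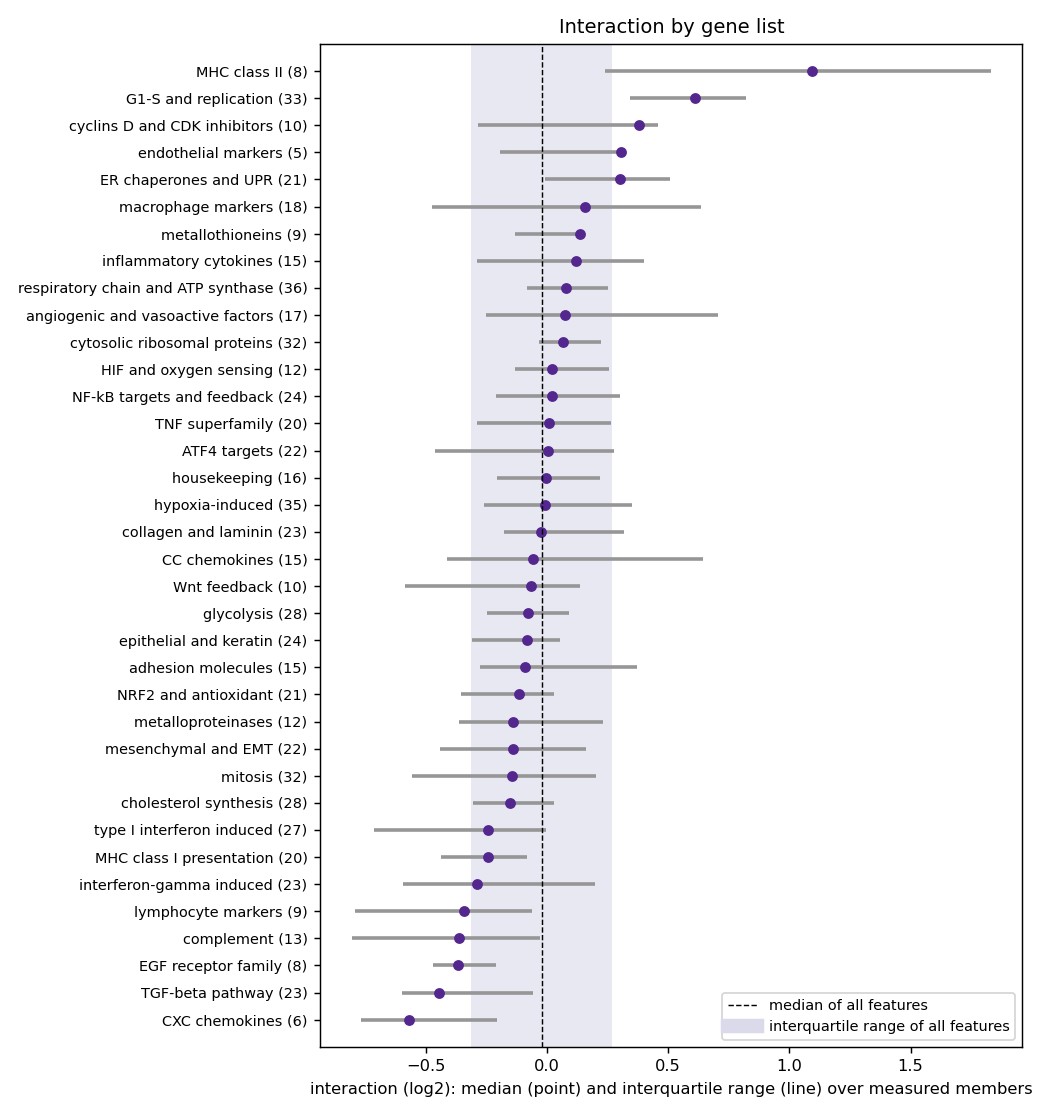
Median interaction (log2, x axis) of each of the 36 gene lists (y axis), with bars for the quartiles and the median and quartiles of all 34487 features for reference. The G1-S and replication list (0.61) and the MHC class II list (1.09, 8 dim genes for the most part) lie highest, and the CXC chemokines (-0.57) and the TGF-beta pathway (-0.45) among the lowest.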

How the data were processed

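Total RNA of PANC-1 cells from 12 cultures was labelled with Cy3 and hybridised to one-colour arrays. The authors normalized the arrays by quantiles and summarised them with RMA, and deposited 1 linear intensity per feature and array. The genome build behind the features is unstated there. Samples were grouped by their titles. Each intensity was converted to log2, all 34487 features were kept, and 1 model over the 4 groups was fitted with limma 3.58.1 (R 4.3.3), with 8 residual degrees of freedom, for the interaction (HPM minus HPC) minus (NPM minus NPC) and for both co-culture effects. Benjamini-Hochberg adjusted p-values over all features under 0.05 were called as passing. No counts stand behind the values, so the number of arrays limits the precision. The labels do not say more of the replicates than independent triplicates.

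Of the features, 14675 received 1 gene name (14133 from the platform annotation and 542 from RefSeq, GRCh38.p14), for 13422 genes. The other 19812 were kept unnamed. Several features measured 1023 of the genes. For these, list counts, list medians and genes chosen from lists rest on the feature with the highest mean log2 intensity over the 12 arrays. Genes chosen by width rest on the feature with the widest interaction that passed. Those chosen for opposite co-culture effects rest on the feature with the smallest interaction p, all unless stated. Named genes needed a group mean above the 25th percentile of all group means (7.67) and were the 12 widest interactions in each direction among those passing, the 6 smallest p with opposite co-culture effects, up to 3 genes with the smallest interaction p per list, and VCAM1 and CCL18 where measured (CCL18 is not analysed here). The genes, 36 lists and tests were chosen with earlier results of these data known, and 2 lists were added after the values were seen.

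Array numbers were checked for pairing: deviations from the group means correlated between same-numbered arrays at 0.338, 0.281 and 0.520 (NPC with NPM) and 0.502, 0.267 and 0.543 (HPC with HPM), and across oxygen levels at -0.118 to 0.405. The numbers were therefore fitted as blocks within each oxygen level, fixed (4 residual degrees of freedom) and random. Other alternatives were repeated quantile normalization, median centring, a filter and a floor on dim features, the linear scale, the moderation of variances, array weights, gene averages and leaving out arrays. In a simulation of the interaction over 34487 features, 29 of 50 features with a 4-fold interaction and 44 of 50 with an 8-fold one were recovered, but only 2 of 50 at 2-fold. The simulated arrays were independent of each other, without the shared deviations of same-numbered arrays, so recovery in the real design may differ. Tables were handled in Python 3.11.15 with pandas 2.3.3 and drawn with matplotlib 3.10.9.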

Additional observations from a re-analysis of the deposited data

Results flagged for a closer look

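The interaction tests whether the co-culture effect differed between normoxia and hypoxia, and each of the 34 named features that passed it is listed here because its 2 co-culture effects differed. The positive interactions were CHI3L1 (4.45), CCL22 (4.38), PER1 (2.35), ANKRD37 (2.32), HILPDA (2.28), TGFBR3 (1.90), EFNA3 (1.81), CEBPD (1.69), RAB3A (1.66), KIF3C (1.62), NR1D1 (1.58), CCNG2 (1.55), CRELD2 (1.39) and IRF1 (1.30), all as log2 differences. The negative ones were LBH (-2.95), PCF11 (-2.81), ENDOV (-2.56), DKK1 (-2.44), PPP1R10 (-2.38), SFPQ (-2.29), RCAN1 (-2.06), ARHGAP26 (-2.01), UBD (-1.89), CABP7 (-1.87), NCOA5 (-1.84), IGFBP3 (-1.80), HMOX1 (-1.66), STC2 (-1.53), MAX (-1.48), MAT2A (-1.43), CFB (-1.32), TGFBR2 (-1.21), CLDN1 (-1.16) and CCNB1 (-1.07). For CCL22, CFB, CCNB1, IRF1 and CRELD2 both co-culture effects had the same sign and differed in size. Groups of 3 arrays are too small for a check of single outlying arrays.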

How the results depend on the processing

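All 34 named interactions that passed kept their direction under every alternative that was run. The number of features whose interaction passed moved from 156 to 311 with features under the 25th percentile left out, 261 without moderation of variances, 363 with trended and robust moderation, 466 with array weights, 31 with the fixed replicate block within each oxygen level, 252 with a fixed replicate block over all arrays and 1138 with the random replicate block. Shared with the 156 were 131, 138, 138, 155, 27, 150 and 156 of these. Leaving out single arrays gave 23 to 73 for the interaction, 290 (without NPC array 1) to 754 for co-culture in normoxia and 558 (without HPC array 2) to 1924 for co-culture in hypoxia. It was 0 for the interaction without all 4 arrays numbered 1, 2 or 3, where limma found 2237, 2346 and 3242 features at an unadjusted p under 0.05 and smallest adjusted p-values of 0.250, 0.239 and 0.0771. In the same 3 fits the co-culture calls fell as well, to 2, 3 and 9 in normoxia and to 0, 0 and 25 in hypoxia. For co-culture in normoxia, 872 became 1374 with the dim features left out, 1545 with trended and robust moderation, 2028 with array weights and 3022 with the random replicate block, and for co-culture in hypoxia 1885 became 2892 with the fixed replicate block within each oxygen level and 5127 with the random one. The cause of these shifts was not tested. Of the 34 named interactions, the fixed block within each oxygen level gives its value in the report wherever the call was lost, and the random block lost none. For the named results, 2036 of 2528 values under alternatives stayed on the same side of the threshold, 396 lost it, 96 gained it and 0 turned in sign. With 3 arrays a group, 2 of 50 simulated interactions of 2-fold were detected, so a gene that did not pass may still have an interaction of that size.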

Other observations

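Transcripts of RNA processing held some of the widest negative interactions, and a list of splicing and 3-prime end processing genes was drawn up after this was seen. Of its 40 genes, 39 were measured, and the interaction was negative and passed for 4 (PCF11, PPP1R10, SFPQ and NXF1) and positive and passed for 1 (WDR33), beside 0.278% and 0.174% of all features. With the fixed replicate block 2 of the 5, PCF11 and SFPQ, passed. NXF1 and WDR33 were likewise chosen after their values were seen. NXF1, the main export receptor of mRNA, had an interaction of -1.22 ± 0.17 (adjusted p = 0.0219, 0.0366 to 0.0685 without single arrays and 0.0579 with the fixed block), and WDR33, a subunit that recognises the polyadenylation signal, 1.48 ± 0.23 (adjusted p = 0.0318, 0.0393 to 0.0901 without single arrays and 0.0508 with the fixed block). The median was -0.18, and 3 genes were higher and 10 lower at an unadjusted p under 0.05 (5.09% and 6.35% of all features). Because this list was drawn up after its leading members were seen, its counts cannot be read as an excess over the shares of all features. Of 22 circadian clock genes, also listed afterwards, 18 were measured, PER1 and NR1D1 alone passed, and the median was 0.04. In hypoxia co-culture raised 5 of the 18 and lowered 1 (1.83% and 3.63% of all features), and in normoxia none passed. The clock list was drawn up afterwards as well, so its counts cannot be read as an excess either. CRY2, a repressor of the clock, had an interaction of 0.90 ± 0.26 (adjusted p = 0.198).

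DIDO1, chosen after its values were seen, was measured by several features that disagreed. NM_033081 gave -2.84 and passed (adjusted p = 0.0168, 0.0115 to 0.0641 without single arrays and 0.0539 with the fixed block). That feature was dim, with no group mean above 7.67. NM_022105 gave 0.96 (adjusted p = 0.127) and a further feature 0.71 (adjusted p = 0.485), and neither passed. Of the 156 features, 77 had no gene name here. The unnamed features BC093742 and BC001863 had interactions of 1.92 and 1.90 (adjusted p = 0.00791 for each), and NM_001013637 and AY395801 had -3.16 (adjusted p = 0.000587) and -2.10 (adjusted p = 0.00171). These 4 passed in all 12 fits without single arrays.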
